A study of Mus musculus with 5 samples.

Results

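Aminoacyl-tRNA synthetases are the enzymes that join each amino acid to its own transfer RNA, the step that fixes the genetic code before the ribosome reads it. Cells keep a cytosolic set for nuclear-encoded messages and a mitochondrial set, also encoded in the nucleus, for the few proteins made from mitochondrial DNA. The genes described here are 36 synthetase genes, 20 cytosolic and 16 mitochondrial, chosen by symbol among the 16003 genes with an expression value. All 36 had a value, and all 36 reached 1 FPKM in at least 1 library. FPKM (fragments per kilobase of transcript at a common library size) is scaled by transcript length, so levels can be compared between genes.

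The cells were RAW264.7, a mouse monocyte/macrophage line. CD137 cells carried Renilla luciferase together with mouse Cd137, the product of Tnfrsf9 and a member of the TNF receptor family that co-stimulates T cells, and control cells carried Renilla luciferase without it. The study asks what Cd137 does to monocytes and macrophages in breast cancer bone metastasis. The series holds 3 CD137 and 2 control samples, and the values here come from CD137 replicates 2 and 3 and control replicate 2. The other samples were not analysed here, and the labels do not say whether cells came from 1 clone or the libraries from separate cultures.

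The labels were checked first. Tnfrsf9 was at 364 and 370.0 FPKM in the CD137 libraries, against 5.06 FPKM in the control library. Relative to the control library, CD137 replicate 2 was sequenced to a depth of 0.983 and replicate 3 to 0.988. Of 8 macrophage markers, 7 were expressed, among them Lyz2, at 646 and 669 FPKM in CD137 cells and 1693 FPKM in the control, while Mertk, an efferocytosis receptor, was at 0.03 and 0 FPKM in CD137 cells and at 0 in the control. The 7 were all called, 3 higher and 4 lower in CD137 cells, where 42.6 percent of all expressed genes were called. Higher were Adgre1, Itgam and Fcgr1, at 1.33, 1.38 and 2.05 times the control. Lower were Lyz2, Cd68, Csf1r and Cd14, at 0.389, 0.869, 0.770 and 0.784 times the control. The list summed to 1772 and 1817 FPKM in CD137 cells, against 2957 FPKM in the control, and Lyz2 was the largest part of the control sum. Of 12 markers of T cells, B cells, epithelium, fibroblasts, endothelium and osteoclasts, 3 reached 1 FPKM in some library, and the summed level of the list was 11.4 and 8.70 FPKM in CD137 cells and 5.39 FPKM in the control. Of these 3, the osteoclast marker Acp5 was called higher, at 4.95 and 4.66 FPKM in CD137 cells and 2.86 FPKM in the control. Krt18 and Pecam1 were not called. Cd3e and Calcr had no value. The part of these marker differences in the results below was not tested. In bulk RNA, fewer cells of a type and less RNA per cell cannot be told apart.

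The cytosolic synthetases split in CD137 cells: 7 rose, 5 fell and 8 did not pass the test. Of the mitochondrial ones 2 rose, 4 fell and 10 did not pass. Among these 16, 12 had a fold change below 0 on the log2 scale, against 4888 of 10720 expressed genes. "Rose" and "fell" are used for an adjusted p under 0.05 in a limma fit of log2(FPKM + 1) over 10720 expressed genes, with Benjamini-Hochberg adjustment over all of them. In that fit 42.6 percent of the genes were called, 24.4 percent higher and 18.2 percent lower. The share called among the mitochondrial synthetases was 37.5 percent, and 12 of the 20 cytosolic ones were called. Among expressed genes in the range of mean levels spanned by the cytosolic synthetases, 55.2 percent were called (30.2 percent higher and 25.1 percent lower). In the range of the mitochondrial ones 42.2 percent were called (24.1 percent higher and 18.1 percent lower), so neither count is far from that of other genes of like level. When limma was fitted to all 16003 genes, 0 genes and so no synthetase passed; the lowest adjusted p among the synthetases was 0.0802, and 20 of the 36 had an unadjusted p under 0.05, as did 33 percent of all genes. With 1 control library the spread comes from the CD137 pair, and the p-values assume that the control varies as they do.

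The median log2 fold change was 0.03 for the cytosolic and -0.19 for the mitochondrial genes, against 0.03 for all expressed genes, and the cytosolic median was -0.01 when libraries were scaled by their median ratio. Summed over the 20 cytosolic genes, the level was 2683 and 2707 FPKM in the CD137 libraries, against 2489 FPKM in the control library. Over the 16 mitochondrial genes it was 206 and 203 FPKM in the CD137 libraries, against 231 FPKM in the control library. The cytosolic sum was therefore 13 and 13.3 times the mitochondrial sum in CD137 cells and 10.8 times in control cells. An exact permutation of 1 against 2 libraries cannot give a two-sided p below 0.333, so these sums are descriptions.

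**Figure D1:**
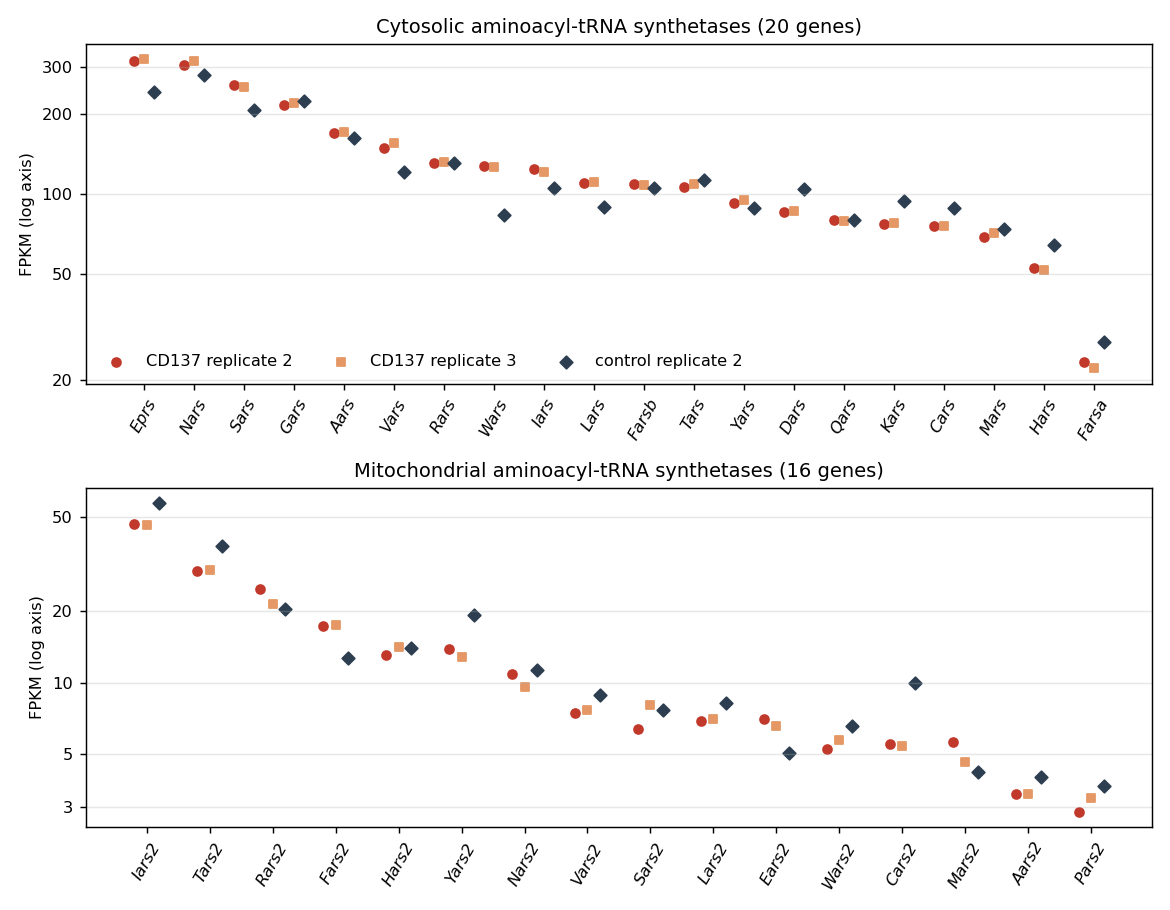
Level of each of the 36 synthetase genes in FPKM (log axis) in CD137 replicates 2 and 3 and control replicate 2, by compartment and in order of the CD137 mean. The CD137 libraries lie close together for most genes, and cytosolic levels run from 22.1 to 321 FPKM in the CD137 libraries, mitochondrial ones from 2.85 to 46.5 FPKM.

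Wars, the cytosolic tryptophanyl-tRNA synthetase and a gene known to be induced by interferon gamma, showed the largest increase among the cytosolic genes. The gene (ID 22375) occupies chromosome 12, bases 108860030 to 108894174 of mm10, minus strand. Wars was at 128 and 127 FPKM in CD137 cells, against 83.9 FPKM in control cells. Their mean, 127 ± 0.481 FPKM (SD, n = 2), was 1.52 times the control. Its log2 fold change was 0.60 ± 0.04 (SE, limma adjusted p = 0.00109).

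Eprs, which encodes the fused glutamyl-prolyl-tRNA synthetase, was the most abundant synthetase in CD137 cells. It was at 318 and 321 FPKM in CD137 cells and 242 FPKM in control cells, where Nars was above it at 280.2 FPKM. Both CD137 libraries lay above the control, and the log2 fold change was 0.40 ± 0.03 (SE, limma adjusted p = 0.00175). The gene (ID 107508) occupies chromosome 1, bases 185361554 to 185428355, plus strand.

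Vars, Lars and Sars, which charge valine, leucine and serine, rose by similar amounts. Vars was at 149 and 155 FPKM in CD137 cells, against 121 FPKM in control cells. Lars, whose product is also known as a leucine sensor upstream of mTORC1, was at 110.3 and 112 FPKM in CD137 cells, against 89.7 FPKM in control cells. Sars was at 257 and 253 FPKM in CD137 cells, against 207 FPKM in control cells. These are ratios of 1.26, 1.24 and 1.23, with limma adjusted p-values of 0.00514, 0.00426 and 0.00364. Iars, for isoleucine, and Nars, for asparagine, showed smaller increases, of 1.17 and 1.11 times the control. Iars was at 125 and 122 FPKM in CD137 cells, against 106 FPKM in control cells (limma adjusted p = 0.011). Nars was at 306 and 316 FPKM in CD137 cells, against 280.2 FPKM in control cells (limma adjusted p = 0.0272). These were also the only called synthetases lost when limma was fitted without a mean-variance trend, with adjusted p-values of 0.0519 for Iars and 0.114 for Nars.

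The 5 cytosolic genes that fell did so by a narrow range, to between 0.808 and 0.854 of the control. Hars, the histidyl-tRNA synthetase, was at 52.8 and 51.7 FPKM in CD137 cells, against 64.7 FPKM in control cells. Dars, for aspartate, was at 85.8 and 86.4 FPKM in CD137 cells, against 105 FPKM in control cells. In both genes the control library lay above both CD137 libraries, with log2 fold changes of -0.30 ± 0.04 for Hars and -0.29 ± 0.04 for Dars (SE, limma adjusted p = 0.00603 and 0.00519). Kars, which encodes both the cytosolic and the mitochondrial lysyl enzyme, was at 77.5 and 78.1 FPKM in CD137 cells, against 94.2 FPKM in control cells (limma adjusted p = 0.00606). Farsa and Cars also fell. Farsa, the catalytic alpha subunit of the phenylalanyl enzyme, was at 23.3 and 22.1 FPKM in CD137 cells, against 27.9 FPKM in control cells (limma adjusted p = 0.0157). Cars, for cysteine, was at 76.1 and 75.7 FPKM in CD137 cells, against 88.9 FPKM in control cells (limma adjusted p = 0.0103).

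The other subunit of the phenylalanyl enzyme was not called; the difference between the subunits was not tested. Farsb, the beta subunit, was at 110 and 108 FPKM in CD137 cells and 106 FPKM in control cells and did not pass (limma adjusted p = 0.389). Its message was thus several times as abundant as that of Farsa in every library. The other 7 cytosolic genes that did not pass were Yars, Aars, Rars, Qars, Gars, Tars and Mars, with log2 fold changes between -0.07 and 0.07. Gars, for glycine, the most abundant of them, was at 216 and 220.5 FPKM in CD137 cells and 224 FPKM in control cells, and like Kars it supplies both compartments. Aars, for alanine, was at 170 and 172 FPKM in CD137 cells and 163 FPKM in control cells. Rars, for arginine, was at 131 and 132 FPKM in CD137 cells and 131 FPKM in control cells. In all 20 cytosolic genes the control lay outside the range of the CD137 pair, which also holds for 89.2 percent of expressed genes.

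**Figure D2:**
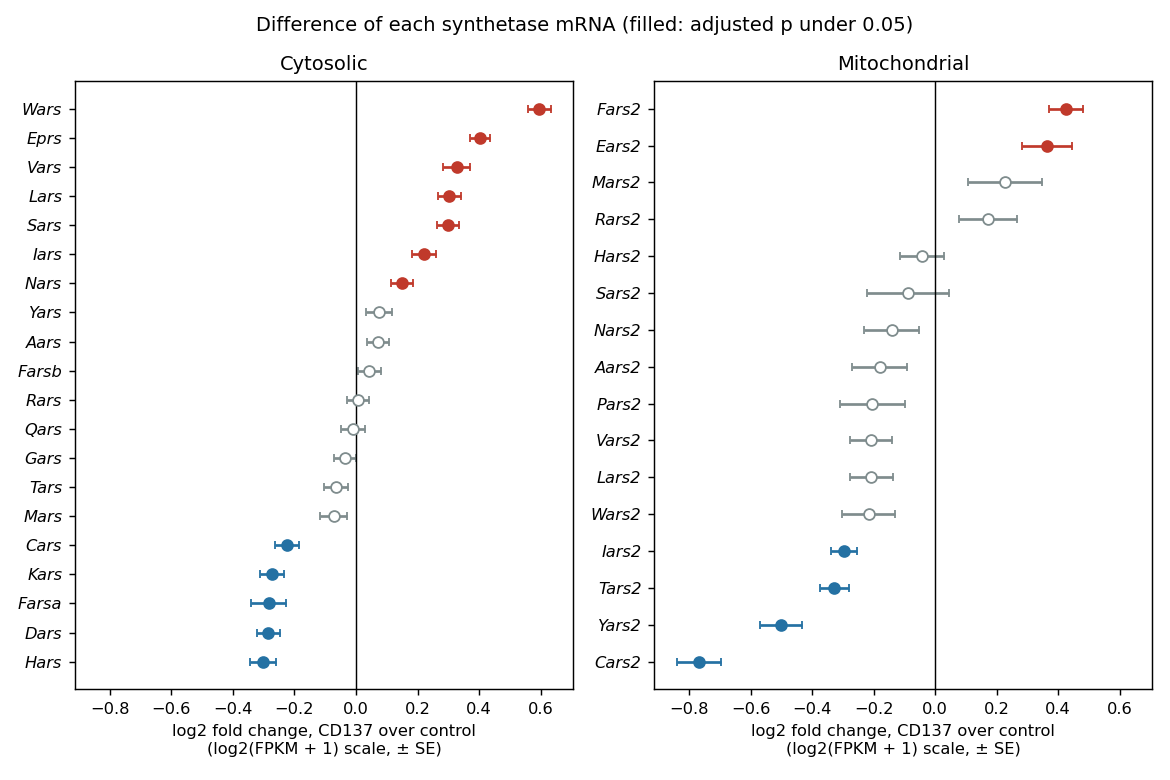
Log2 fold change of each synthetase, CD137 over control, on the log2(FPKM + 1) scale, with its limma standard error; filled points passed an adjusted p of 0.05. Cytosolic values run from -0.30 (Hars) to 0.60 (Wars) and mitochondrial ones from -0.77 (Cars2) to 0.42 (Fars2).

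Among the mitochondrial genes Cars2, the cysteinyl-tRNA synthetase, had the largest difference of all 36. The gene (ID 71941) occupies chromosome 8, bases 11514017 to 11550778, minus strand. Cars2 was at 5.5 and 5.4 FPKM in CD137 cells, against 9.99 FPKM in control cells, a ratio of 0.546. Its log2 fold change was -0.77 ± 0.07 (SE, limma adjusted p = 0.00214).

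Yars2, Tars2 and Iars2, for tyrosine, threonine and isoleucine, fell as well. Yars2 was at 13.9 and 12.9 FPKM in CD137 cells, against 19.3 FPKM in control cells, a ratio of 0.692 (limma adjusted p = 0.00537). Tars2 was at 29.4 and 29.9 FPKM in CD137 cells, against 37.5 FPKM in control cells, a ratio of 0.791 (limma adjusted p = 0.00623). Iars2, the most abundant mitochondrial synthetase, was at 46.5 and 46.0 FPKM in CD137 cells, against 57.0 FPKM in control cells, a ratio of 0.811 (limma adjusted p = 0.00627).

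Fars2 and Ears2 went the other way. Fars2, the single-chain mitochondrial phenylalanyl enzyme, was at 17.4 and 17.5 FPKM in CD137 cells, against 12.7 FPKM in control cells, with a log2 fold change of 0.42 ± 0.05 (SE, limma adjusted p = 0.00481). Ears2, for glutamate, was at 7.05 and 6.57 FPKM in CD137 cells, against 5.07 FPKM in control cells, with a log2 fold change of 0.36 ± 0.08 (SE, limma adjusted p = 0.0216). Ears2 takes part in making glutaminyl-tRNA in mitochondria too, since there it charges the glutamine transfer RNA with glutamate before the amino acid is converted.

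The other 10 mitochondrial genes did not pass. Of these, 8 had log2 fold changes between -0.22 and -0.04 and the other two, Mars2 and Rars2, had 0.23 and 0.17. Rars2 was at 24.9 and 21.5 FPKM in CD137 cells and 20.4 FPKM in control cells, and its CD137 libraries differed from each other more than the lower of them differed from the control. Hars2 was at 13.1 and 14.2 FPKM in CD137 cells and 14.0 FPKM in control cells, and Sars2 at 6.39 and 8.04 FPKM in CD137 cells and 7.69 FPKM in control cells, so in both the control lay between the CD137 libraries. Nars2 was at 10.9 and 9.55 FPKM in CD137 cells and 11.3 FPKM in control cells. Vars2 and Lars2 missed narrowly, with limma adjusted p-values of 0.0637 and 0.0655, and passed as lower under median-ratio scaling, at 0.0414 and 0.0434.

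For 13 amino acids a cytosolic gene has a single mitochondrial counterpart. The cytosolic gene was the more abundant in every library for all 13, by 1.85 to 50.4 times. That ratio was higher in both CD137 libraries than in the control for 10 pairs and lower in both for 3 (Hars, Mars and Rars over their counterparts). Wars was at 24.3 and 22.1 times the level of Wars2 in CD137 cells, against 12.8 times in control cells. Iars was at 2.68 and 2.65 times the level of Iars2 in CD137 cells, against 1.85 times in control cells, and this was the only pair of the 13 with opposite calls. Cars and Cars2 were the only pair called in the same direction, both lower, with ratios of 13.8 and 14.0 in CD137 cells, against 8.90 in control cells. For phenylalanine the order was the opposite of that for isoleucine: Farsa fell and Fars2 rose. Farsa was at 1.34 and 1.27 times Fars2 in CD137 cells, against 2.19 times in control cells. For glutamate, where Eprs and Ears2 both rose, Eprs was at 45.1 and 48.9 times the level of Ears2 in CD137 cells and 47.6 times in control cells, so the control lay between the CD137 libraries.

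**Figure D3:**
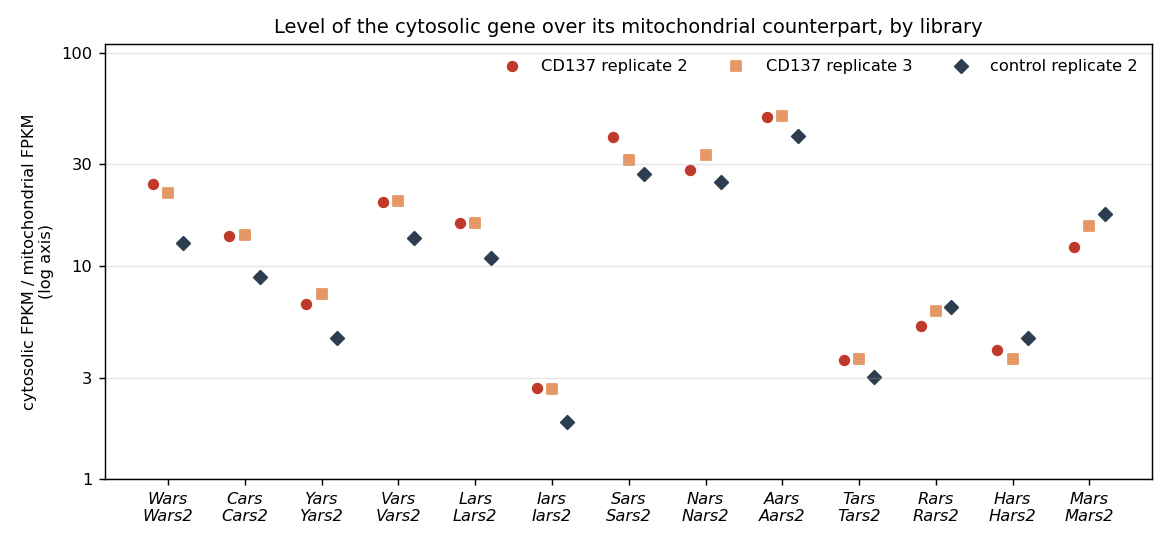
FPKM of the cytosolic gene divided by that of its mitochondrial counterpart (log axis) in each library, for the 13 amino acids with 1 gene in each compartment. The ratio is higher in both CD137 libraries for 10 pairs, with Wars over Wars2 at 24.3 and 22.1 in CD137 cells and 12.8 in control cells.

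Synthetases also differ in how they are assembled. In mammals, 8 cytosolic genes (Dars, Eprs, Iars, Kars, Lars, Mars, Qars and Rars) encode members of the multi-synthetase complex, held together by scaffold proteins. Of these 8, 3 rose, 2 fell and 3 did not pass, and of the 12 outside the complex 4 rose, 3 fell and 5 did not pass. The scaffold genes are Aimp1, Aimp2 and Eef1e1. Aimp1, whose product is also secreted as a cytokine precursor, rose to 99.0 and 98.2 FPKM in CD137 cells, against 80.8 FPKM in control cells (limma adjusted p = 0.00519). Aimp2 was at 35.4 and 37.8 FPKM in CD137 cells and 40.0 FPKM in control cells, and Eef1e1 at 48.3 and 46.0 FPKM in CD137 cells and 47.0 FPKM in control cells; neither passed. By catalytic fold, 4 cytosolic class I genes rose and 1 fell of 9, and 2 class II genes rose and 4 fell of 10, with Eprs, which carries both folds, left out. Among expressed genes in the level range of the cytosolic synthetases, 30.2 percent rose and 25.1 percent fell. Differences between these small groups, by complex or by fold, were not tested.

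Cytosolic synthetase genes are often described as targets of ATF4, the transcription factor made when uncharged transfer RNA activates the kinase GCN2. A list of 13 such genes was drawn up from general knowledge, with no source in the deposited data: Aars, Cars, Eprs, Gars, Iars, Lars, Mars, Nars, Sars, Tars, Vars, Wars and Yars. Of these 13, 7 rose, 1 fell and 5 did not pass, with a median log2 fold change of 0.15. Of the other 7 cytosolic genes none rose, 4 fell and 3 did not pass, with a median of -0.27. The members of both lists were chosen with earlier results of these data known, and the contrast between them is a description. Shares called were 53.8 percent higher and 7.69 percent lower for the 13 genes, and 0 and 57.1 percent for the other 7. Expressed genes in the level range of the cytosolic synthetases had 30.2 and 25.1 percent. Atf4 itself was at 371 and 370.4 FPKM in CD137 cells and 372 FPKM in control cells (limma adjusted p = 0.907), which covers its message and not its translation.

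A sequence associated with this response, TGATGNAA, was looked for on both strands of RefSeq promoter windows (GRCm38.p6, the assembly of mm10), which reach from 250 bases before to 50 bases after a gene's start. Windows were held for 27 of the 36 synthetases, 13 cytosolic and 14 mitochondrial. The letters were found in 5 of the 13 cytosolic windows, or 38.5 percent, and in 0 of the 14 mitochondrial ones, against 2.80 percent of 8687 expressed genes with a window. A match in each of these 5 genes is shown because the genes span those that rose and those that did not pass. The stretches are of 30 bases on the gene's strand, with the match in capitals (TTNCATCA where it lies on the opposite strand).
Iars: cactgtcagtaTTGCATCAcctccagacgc
Tars: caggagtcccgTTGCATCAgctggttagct
Gars: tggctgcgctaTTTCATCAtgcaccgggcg
Yars: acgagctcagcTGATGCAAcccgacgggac
Aars: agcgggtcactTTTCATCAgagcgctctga
They lie at chr13:49682126-49682155 on the plus strand (Iars), chr15:11399655-11399684 on the minus strand (Tars), chr6:55037960-55037989 on the plus strand (Gars) and chr4:129189895-129189924 on the plus strand (Yars). That of Aars lies at chr8:111033840-111033869 on the plus strand. Aars holds another match, not shown, which begins 112 bases before the start. The match shown begins 30 bases before the start in Gars and 15 bases before it in Tars. It begins at base 8 of the transcribed part in Iars, base 4 in Yars and base 10 in Aars. Of these 5 genes Iars rose, and Tars, Gars, Yars and Aars did not pass. Of the genes that rose, Eprs and Sars had a window without a match, and Wars, Vars, Lars and Nars had no window here.

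Other genes of the amino acid response moved in both directions. Of 23 expressed members of that list 6 rose, 11 fell and 6 did not pass, with a median log2 fold change of -0.06. That is 26.1 percent higher and 47.8 percent lower, against 24.4 and 18.2 percent of all expressed genes. The members of the list with the largest changes were Ddit4, Chac1, Pycr1 and Nupr1. Ddit4, an inhibitor of mTORC1 signalling, fell to 23.1 and 23.8 FPKM in CD137 cells, against 48.8 FPKM in control cells (limma adjusted p = 0.000808). Chac1, which degrades glutathione, fell to 18.4 and 19.6 FPKM in CD137 cells, against 31.8 FPKM in control cells (limma adjusted p = 0.00188). Pycr1, a mitochondrial enzyme of proline synthesis, rose to 29.7 and 31.6 FPKM in CD137 cells, against 19.3 FPKM in control cells (limma adjusted p = 0.00205). The stress-induced nuclear protein gene Nupr1 rose as well, to 266 and 256 FPKM in CD137 cells, against 167 FPKM in control cells (limma adjusted p = 0.0011). Among genes that sense or relay uncharged transfer RNA, 2 of 6 rose and 1 fell, or 33.3 and 16.7 percent. Ppp1r15a, the stress-induced phosphatase subunit that reverses eIF2 alpha phosphorylation, rose to 66.0 FPKM in both CD137 libraries, against 35.8 FPKM in the control (limma adjusted p = 0.000808), and Eif2ak4, which encodes GCN2, was at 8.35 and 7.69 FPKM in CD137 cells and 8.62 FPKM in control cells and did not pass. Impact, an inhibitor of GCN2 activation, rose to 13.3 and 14 FPKM in CD137 cells, against 11.4 FPKM in control cells (limma adjusted p = 0.0337). Ppp1r15b, the constitutive phosphatase subunit, fell to 36.5 and 34.3 FPKM in CD137 cells, against 43.2 FPKM in control cells (limma adjusted p = 0.0154).

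Steps on either side of charging varied too. Of 11 genes for editing, formylation, CCA addition and indirect charging 3 rose, 2 fell and 6 did not pass. The share called was 45.5 percent, against 42.6 percent of all expressed genes. Gatc and Gatb, subunits of the amidotransferase that completes mitochondrial glutaminyl-tRNA, moved in opposite directions. Gatc rose to 26.5 and 28 FPKM in CD137 cells, against 17.9 FPKM in control cells (limma adjusted p = 0.00252). Gatb fell to 24 and 24.3 FPKM in CD137 cells, against 27.8 FPKM in control cells (limma adjusted p = 0.0295). Pstk, a kinase on the route to selenocysteinyl-tRNA, rose 1.47-fold and Dtd1, which removes D-amino acids from transfer RNA, 1.30-fold (limma adjusted p = 0.00384 and 0.00645). Trnt1, which adds the CCA end, fell to 0.841 of the control (limma adjusted p = 0.0266).

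Mitochondrial translation factors showed a median close to that of the mitochondrial synthetases. Of 11 expressed members 1 rose, 4 fell and 6 did not pass, with a median log2 fold change of -0.20. That is 9.09 percent higher and 36.4 percent lower, against 24.4 and 18.2 percent of all expressed genes. Tufm, which brings charged transfer RNA to the mitochondrial ribosome, fell to 51.9 and 54.4 FPKM in CD137 cells, against 72.5 FPKM in control cells (limma adjusted p = 0.00315). Gfm1, the elongation factor of translocation, fell to 29.2 and 28.7 FPKM in CD137 cells, against 40.1 FPKM in control cells (limma adjusted p = 0.00269). Mtrf1l, a mitochondrial release factor, fell to 2.93 and 2.89 FPKM in CD137 cells, against 4.96 FPKM in control cells (limma adjusted p = 0.00658). The initiation factor gene Mtif2 was the member that rose, to 22.3 and 22.2 FPKM in CD137 cells, against 18 FPKM in control cells (limma adjusted p = 0.0108). Of 6 cytosolic elongation factors 1 rose, 2 fell and 3 did not pass, or 16.7 percent higher and 33.3 percent lower. Eef2, the translocation factor, was 1.08 times the control, and Eef1d, an exchange factor subunit for eEF1A, and the hypusinated factor gene Eif5a were 0.831 and 0.891 times the control (limma adjusted p = 0.0316, 0.00518 and 0.0119). Eef1a1, which carries charged transfer RNA in the cytosol, was at 7955 and 7987 FPKM in CD137 cells and 7607 FPKM in control cells and did not pass (limma adjusted p = 0.0979).

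**Figure D4:**
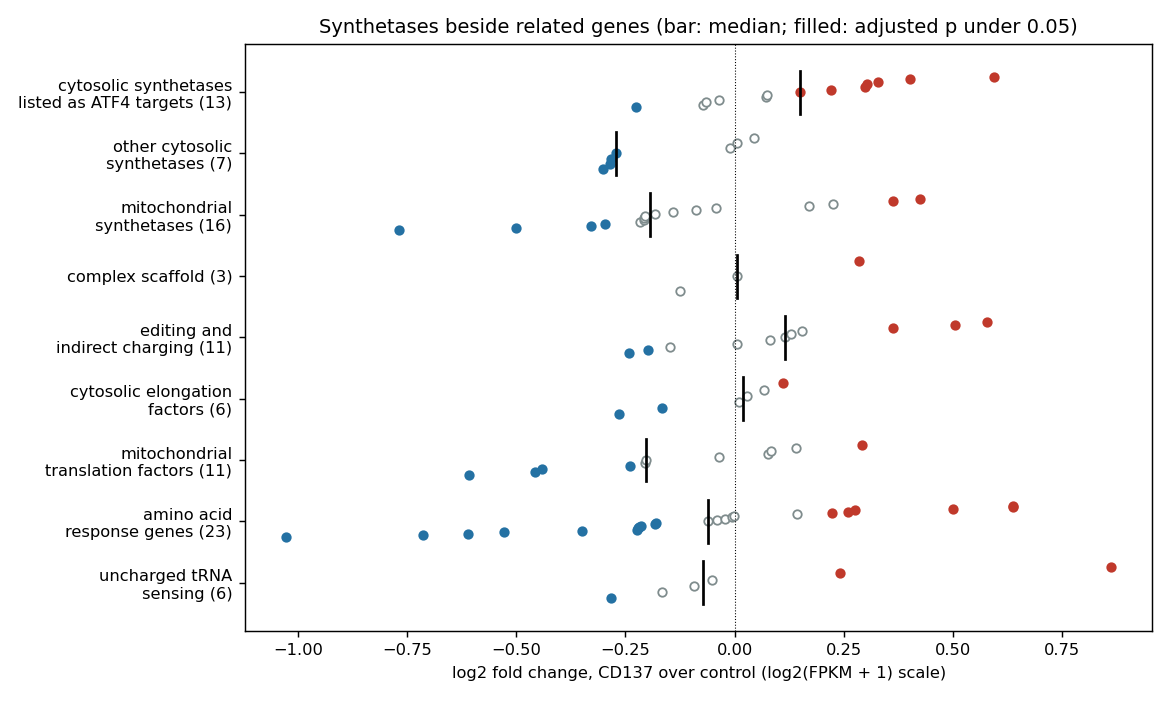
Log2 fold changes (CD137 over control, log2(FPKM + 1) scale) of the synthetases in 3 groups and of 6 lists of related genes; each point is a gene, the bar is the median, and filled points passed an adjusted p of 0.05. The 13 cytosolic genes listed from general knowledge as ATF4 targets have a median of 0.15, the other 7 cytosolic genes -0.27 and the mitochondrial genes -0.19.

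The depth behind these values differed between compartments. Whole reads could be solved uniquely from the deposited p-values for 29 of the 36 genes. They ranged from 719 to 14870 per library for 14 cytosolic genes and from 123 to 3601 for 15 mitochondrial genes. Wars had 6223 and 6293 reads in CD137 cells and 4180 in control cells, a ratio per depth of 1.52 with a 95% exact Clopper-Pearson interval of 1.47 to 1.57. Cars2 had 171 and 182 reads in CD137 cells and 329 in control cells, a ratio of 0.544 with an interval of 0.467 to 0.635. The intervals cover counting error only, and they lay apart from 1 for all 15 called genes with solved reads. Pars2, at 123 and 132 reads in CD137 cells and 155 in control cells, had an interval of 0.681 to 1.03, which holds 1, as did the intervals of Aars2, Sars2, Hars2, Rars and Qars. The intervals of 8 genes that did not pass in limma also lay apart from 1. Above 1 were Yars (1.02 to 1.09), Mars2 (1.04 to 1.43) and Rars2 (1.04 to 1.25). Below 1 were Tars (0.924 to 0.988), Vars2 (0.775 to 0.935), Lars2 (0.769 to 0.948), Wars2 (0.754 to 0.939) and, by the narrowest margin, Gars. An interval apart from 1 therefore did not go with a call in every gene; it holds no spread between libraries, and Mars2, for one, was at 5.61 and 4.64 FPKM in CD137 cells and 4.22 FPKM in control cells.

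**Figure D5:**
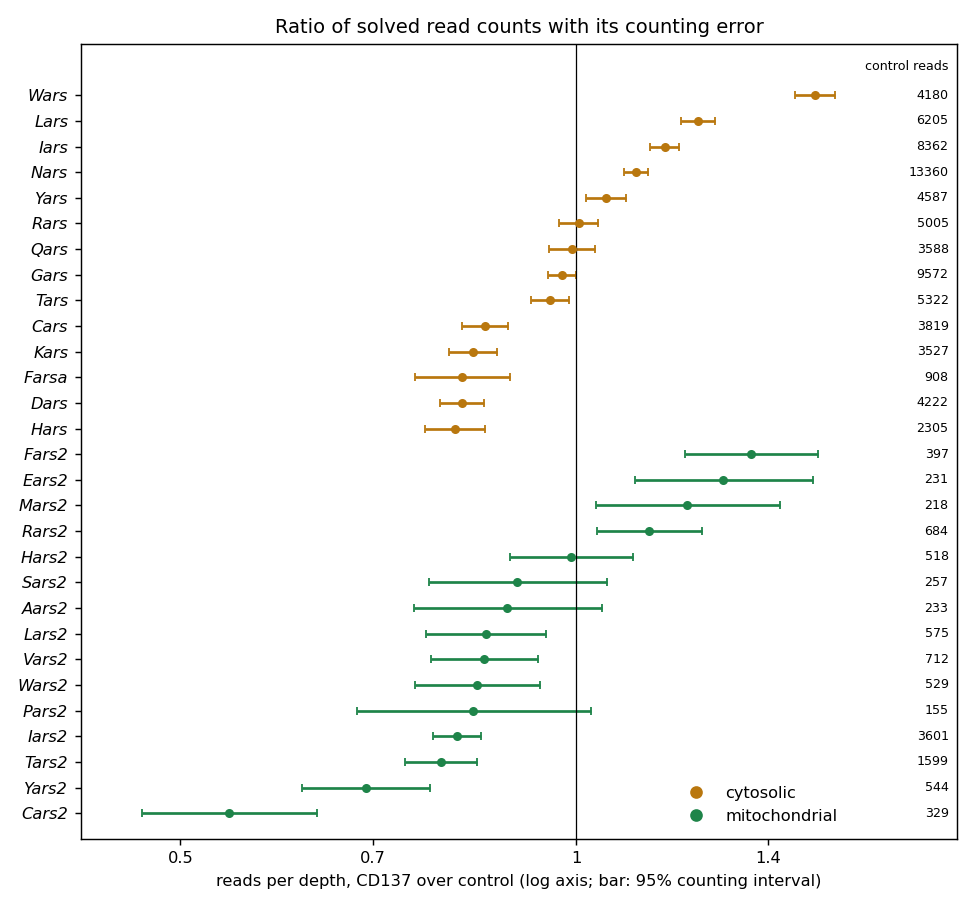
Ratio of solved reads per depth, CD137 over control (log axis), with 95% exact counting intervals, for 14 cytosolic and 15 mitochondrial genes; the control's reads stand at the right. Mitochondrial intervals are wider, as for Pars2 (0.681 to 1.03), and that of Wars runs from 1.47 to 1.57.

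Some genes overlap a neighbour on the opposite strand, and the sources used here do not say whether counting used strand. Mars overlaps by 71 bases the span of Ddit3, the CHOP gene, which rose to 264 and 260.1 FPKM in CD137 cells, against 185 FPKM in control cells (limma adjusted p = 0.00127), and Aars overlaps by 3925 bases that of Ddx19b, at 9.08 and 9.19 FPKM in CD137 cells and 7.24 FPKM in control cells. Iars2, Yars and Farsb overlap Rab3gap2, C77080 and Sgpp2. These are overlaps of whole gene spans, and not all of the shared bases need be in the transcripts. If counting ignored strand, reads in such stretches cannot be told apart by gene, and their part in these values was not tested.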

How the data were processed

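The authors deposited 1 table of FPKM values, rounded to 0.01, with p-values of a Poisson comparison for each pair of libraries, per the file headers. The submitters' processing notes list HISAT2, Bowtie2, RSEM and the build mm10 but give no roles. Of 21990 genes listed, 16003 had a value, and 1 broken-off line was left out. Libraries were made with oligo-dT beads, per the labels' protocols. Libraries were assigned from sample titles.

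limma 3.58.1 in R 4.3.3 was fitted to log2(FPKM + 1) with empirical Bayes and a mean-variance trend over the 10720 genes that reached 1 FPKM in any library, with 1 residual degree of freedom. Fold changes on that scale understate changes of low genes. The filter was taken because a fit of all genes makes no call, and the members and lists were chosen with earlier results of these data known. Per-library values were to be given for up to 8 cytosolic and 6 mitochondrial genes past the threshold with the largest changes, the most abundant gene and up to 4 that did not pass in each compartment, and up to 4 called genes of each other list. The other called cytosolic genes, Mars2, Sars2, Vars2, Lars2, Gatb and the genes that overlap a synthetase were added after their values were seen.

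Whole reads were solved from the deposited p-values, each reproduced as 2 times the smaller tail of a conditional Poisson distribution (scipy 1.17.1). The fit and the solving were tested on simulated data. The longest transcript length in the deposited table, in bases, set the range searched. The labels name no separate cultures, and the spread behind each p-value may therefore be technical. Alternatives were another pseudocount, other filters, median-ratio scaling, no trend, each CD137 library alone and solved reads. Some items are not reported here.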

Additional observations from a re-analysis of the deposited data

How the results depend on the processing

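The direction of all 18 called synthetases was the same under each alternative that gave them a value. Only median-ratio scaling and solved reads could have changed it. The filters and the trend leave the fold change as it is. In every called synthetase the control lay outside the CD137 pair, so neither another pseudocount nor a single CD137 library could reverse the direction. Without a filter on low values 0 genes passed, and so 0 cytosolic, 0 mitochondrial and 0 related genes in either direction, although 5281 of 16003 genes, and 20 of the 36 synthetases, had an unadjusted limma p under 0.05; the cause was not tested. With a pseudocount of 0.1, a mean of at least 1 FPKM or 5 FPKM in at least 1 library, 12 cytosolic and 6 mitochondrial genes passed as before; under median-ratio scaling 12 and 8 did, and without a trend 10 and 6. Related genes called lower numbered 12 without a trend, against 21. The cytosolic median log2 fold change was -0.0062 under median-ratio scaling and -0.0229 over the 14 genes with solved reads, and the mitochondrial one -0.2288 over 15; that use of reads was added after seeing the data. With a single CD137 library against the control, with no test, the medians ranged from 0.0235 to 0.027 (cytosolic) and from -0.2214 to -0.1715 (mitochondrial). No paired analysis was possible because the libraries used share only replicate number 2. Counting intervals held 1 for 4 of 15 mitochondrial and 2 of 14 cytosolic genes with solved reads.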
